A study of Homo sapiens with 18 samples.

Results

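The chromatin of HEK293T cells treated with valproic acid (VPA) was described from the peak lists of 2 antibodies, one against H3K27ac and one against CTCF. The members were the 3 H3K27ac libraries and the 3 CTCF libraries of treated cells, 6 of the 18 samples of the series, and they held 265502 of its 506359 peaks. HEK293T is a transformed line that descends from human embryonic kidney. The treated cells had been kept for 1 day in 1 mM VPA, which inhibits histone deacetylases, and the comparison group CTRL was left untreated and had 3 libraries of each antibody as well. The other 6 samples were inputs, meaning sonicated chromatin without immunoprecipitation, and were not analysed here. Nothing in the labels states whether the replicates came from separate cultures, so p-values measure the spread between libraries, which may be technical. Peaks of one antibody that touched were merged, and a merged interval was kept as a consensus region where at least 2 of the 3 libraries had a peak in it. This gave 35442 acetylated regions covering 71.1 Mb and 50402 CTCF regions covering 43.4 Mb in VPA-treated cells. In untreated cells the same rule gave 26492 acetylated and 54520 CTCF regions.

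H3K27ac is acetylation of lysine 27 on histone H3, placed by the acetyltransferases p300 and CBP and removed by deacetylases, and it marks nucleosomes that flank active promoters and enhancers. CTCF is a zinc finger protein that reads a long DNA motif, halts the cohesin complex as it extrudes loops and so sets many borders of chromatin domains. CTCF also binds at many promoters, and the direction of its motif decides which neighbouring sites it loops with.

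The CTCF motifs at the strongest regions are shown first, since both kinds of site, with and without acetylation, carried close matches to the same core. Each sequence was read from the hg38 genome 5′ to 3′ on the strand of the motif, with the 13 bases that best matched the core of the CTCF motif in capitals and 8 bases on each side. The first 4 lie in regions among the 5 that ranked highest for both antibodies, of 7957 pairs called in all 6 libraries, and 1 letter of the core differed in each.

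POLR2J3 promoter, chr7:102572632-102572660, minus strand: cctccagcCCAACAGGGGGCGatgagccg
Intergenic, 49.5 kb from the start of GPC5, chr13:91349061-91349089, minus strand: ccgcgtagCCGCCAGGGGGCGgcgggtca
SH3GL1 promoter, chr19:4400624-4400652, minus strand: ctcttcagCCGGCAGAGGGCGcgcgtgcg
U2AF2 promoter, chr19:55653803-55653831, plus strand: ccgttgggCCGCCAGGGGGCAgtaacgcc

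The next 3 come from CTCF regions with no H3K27ac peak in any of the 3 libraries, ranked among 18768 such regions. GBX1, which encodes a homeobox factor, carried a match of all 13 letters in an intron. The third stood at 3 of the 5 highest places, which had the same 29 bases with 2 letters off the core.

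GBX1 intron, chr7:151172690-151172718, minus strand: cgctgctgCCACCAGAGGGCAcccgcggc
Intergenic, 26.0 kb from the start of EIF1, chr17:41662809-41662837, minus strand: ccggaccaCCGGCAGGGGGCGctgctgct
Short arm of chromosome 21, chr21:8388144-8388172, minus strand: caaagcggCCGCCAGATGGAGcccgacaa

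Those 3 regions on chromosome 21 shared identical runs of 929, 715 and 715 bases with each other, and the widest of them was 954 bp. Reads from such repeats cannot be assigned to 1 copy, so the rank of these regions is uncertain.

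The lists differed in length within an antibody. The H3K27ac libraries held 38441, 40992 and 40817 peaks, and the CTCF libraries held 36469, 53458 and 55325. Replicate 1 stood apart in both: its covered bases had a Jaccard overlap of 0.555 and 0.559 with the other H3K27ac libraries, against 0.699 between those 2, and of 0.578 and 0.580 for CTCF, against 0.791. Without the CTCF library of replicate 1, 33.3% of acetylated regions had CTCF and 5111 genes had both at the promoter, and without the H3K27ac library of replicate 1 these values were 36.1% and 5530, against 34.9% and 5547 with all libraries. The lists give no read totals, so the depth of the libraries is unknown.

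Peaks of the 2 antibodies lay in different places. A peak was placed at the promoter when its summit fell no more than 1 kb from where a protein-coding gene starts (its TSS). Promoter peaks were 24.9%, 24.1% and 24.2% of the 3 H3K27ac lists (24.4% ± 0.434, SD, n = 3) and 13.6%, 10.4% and 8.93% of the CTCF lists (11.0% ± 2.36, n = 3). All H3K27ac libraries were above all CTCF libraries, by 13.4 points on average. Intergenic peaks, outside every protein-coding gene and promoter, were 29.6% ± 0.738 of the H3K27ac peaks and 44.4% ± 2.06 of the CTCF peaks. Summits over 100 kb from any TSS made up 13.9%, 16.5% and 15.4% of H3K27ac peaks and 22.3%, 25.9% and 28.0% of CTCF peaks, again without overlap. Gene bodies held about equal shares, 46.0% ± 0.380 and 44.6% ± 0.300, and the sign of this difference of 1.38 points turned to −0.17 when peaks below a −log10 q-value of 3 were left out.

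H3K27ac peaks were also wider. Their median widths were 871, 1138 and 1054 bp, against 533, 708 and 698 bp for CTCF, and they covered 48.4, 67.4 and 62.2 Mb against 22.3, 41.0 and 40.4 Mb, a ratio of 1.72 between the means. A match to the CTCF core motif, with at most 1 mismatch within 100 bp of the summit, was found at 44.2%, 33.6% and 36.5% of CTCF peaks and at 1.16%, 1.31% and 1.61% of H3K27ac peaks. The same search 2 kb away from the summits found it at 0.805% to 0.938% of the CTCF peaks outside acetylated regions in each library. Each of these differences had an exact two-sided permutation p of 0.1, the smallest that 3 libraries against 3 can give, and an adjusted p of 0.153 over 23 tests. Peak number (difference −8334, exact p = 0.4) and median GC content at the summits (52.1% against 50.3%, exact p = 0.4) overlapped between the antibodies. Without the CTCF library of replicate 1 these differences were −14308 peaks and 2.89 points, and without that of replicate 3 −4880 peaks and 0.798 points. No comparison of 3 libraries with 3 could pass 0.05.

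**Figure D1:**
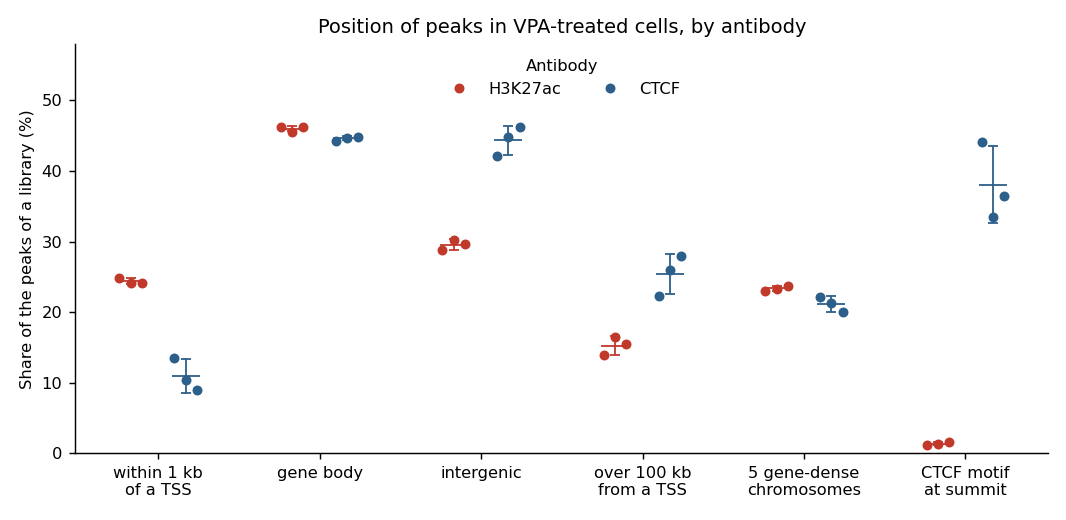
Share of the peaks of each library in VPA-treated cells (vertical axis, %) in 6 categories, for H3K27ac (red) and CTCF (blue). Points are the 3 libraries and bars the mean ± SD, and the 2 antibodies are farthest apart at promoters (24.4% against 11.0%), between genes (29.6% against 44.4%) and for the CTCF motif (1.36% against 38.1%).

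Of the 35442 acetylated regions, 12386 (34.9%) shared at least 1 bp with a CTCF region and 23056 carried acetylation only. In the other direction, 13258 of the 50402 CTCF regions (26.3%) were acetylated and 37144 (73.7%) were CTCF only. Single libraries gave similar shares, since 28.9%, 31.5% and 31.9% of H3K27ac peaks met a CTCF consensus region. The share of CTCF peaks that met an acetylated region was 32.8%, 26.6% and 24.1%, with the highest value in the shortest list. Each library pooled many cells, so both marks on the same chromosome and each mark in different cells cannot be told apart.

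The 3 classes of region had different surroundings. Acetylated regions with CTCF were at promoters in 38.6% of cases, against 21.2% of those with acetylation only, while introns held 25.3% and 42.3%. Regions with CTCF only were nearly absent from promoters (662 regions, 1.78%), and 50.9% of them were intergenic with a median of 50.0 kb to the nearest TSS. Regions with both were wider, at a median of 1928.5 bp against 1386 bp, and richer in GC at the H3K27ac summit, at a median of 61.7% against 50.5% within 250 bp. The GC difference was present at promoters (69.7% against 65.9%) and away from them (54.9% against 48.1%).

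CTCF was met more often as acetylated regions became wider or stronger. The share of acetylated regions with CTCF was 22.5% (95% Wilson interval 20.4% to 24.7%, counting error only) below 500 bp and 54.6% (52.9% to 56.3%) from 4000 bp up. Away from promoters the same widths gave 22.5% and 51.0%. A wider interval has more room to touch a CTCF region, which also bears on the greater width of regions with both. The part of this was not tested. In 5 equal bins of the regions ordered by the mean within-list rank of their −log10 q-value, CTCF was present at 21.3% of the weakest acetylated regions and 52.0% of the strongest. Promoters made up 2.61% of the weakest bin and 74.0% of the strongest, so strength and position moved together. For CTCF regions the share with acetylation was 22.2% in the weakest bin, 17.3% in the next and 46.6% in the strongest, so it did not climb evenly.

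Most of these regions were also found in untreated cells. Acetylation in CTRL was seen at 74.5% of the treated regions with both and at 63.9% of those with acetylation only. CTCF regions were shared with CTRL in 95.4% of the acetylated and 93.4% of the CTCF only cases. Of the 13258 CTCF regions acetylated after VPA, 9701 (73.2%) were acetylated in CTRL and 3557 were not. Of the 37144 CTCF only regions, 162 were acetylated in CTRL.

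The distance from an acetylated region to the nearest CTCF summit was counted from its closer edge and set to 0 when a summit lay inside. The median was 5.01 kb. A CTCF summit lay inside 32.1% of the regions, within 1 kb of 36.6%, within 10 kb of 62.0% and within 100 kb of 97.8%. For comparison, 3.63% of the assembled genome lay within 1 kb of a CTCF summit, 27.8% within 10 kb and 86.6% within 100 kb, counted over single bases and not over intervals. The remaining 776 acetylated regions were over 100 kb away, and the farthest was at 834.2 kb.

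Promoter regions were nearest to CTCF, with a median of 0.707 kb and a summit inside 47.6% of them, followed by exonic (1.59 kb), intergenic (5.68 kb) and intronic regions (7.85 kb). When no summit lay inside, the median distance was 12.2 kb at promoters and 13.0 kb in introns, so these 2 classes differed mainly in how often CTCF lay within the region. The peaks of single H3K27ac libraries gave medians of 6.13, 5.61 and 5.32 kb. The value depended on the CTCF list, however. Against the short CTCF list of replicate 1 the medians were 8.18 to 9.52 kb, and the consensus median became 9322 bp without the CTCF library of replicate 2 and 9000 bp without that of replicate 3, when a region had to be in both remaining CTCF libraries. Acetylated regions away from promoters had like medians whether or not they were acetylated in CTRL (6.46 and 6.28 kb), although a summit lay inside 29.3% of the former and 22.2% of the latter.

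**Figure D2:**
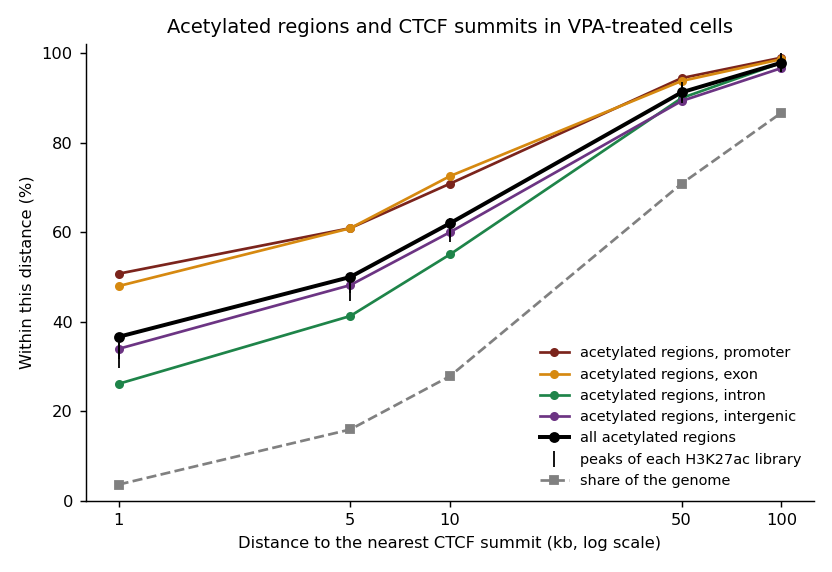
Share of acetylated regions in VPA-treated cells (vertical axis, %) within a given distance of the nearest CTCF summit (horizontal axis, kb, log scale), for all regions (black), for 4 positions (colours) and for the peaks of each H3K27ac library (ticks). The dashed line is the share of the genome within the same distance, and at 10 kb the values are 62.0% for acetylated regions and 27.8% for the genome.

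Where a CTCF summit lay inside an acetylated region, the 2 summits seldom coincided. The H3K27ac summit of a region was that of its peak of highest rank, which need not be the nearest. Away from promoters, CTCF summits with a motif were at a median of 247 bp from it (n = 2764 summits). Of these, 7.16% were within 100 bp, 26.8% at 100 to 200 bp and 27.7% at 200 to 300 bp. The 3 libraries paired by number gave medians of 236, 238 and 222 bp, with 8.81%, 9.15% and 11.2% within 100 bp. Summits without a motif were more often close, with 14.8% within 100 bp (n = 4287). At promoters the offset was larger, with medians of 460 bp with a motif (n = 965) and 392.5 bp without (n = 4138). These are distances between called summits, whose spacing also depends on peak width and on fragments of 200 to 600 bp, and the part of either was not tested.

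**Figure D3:**
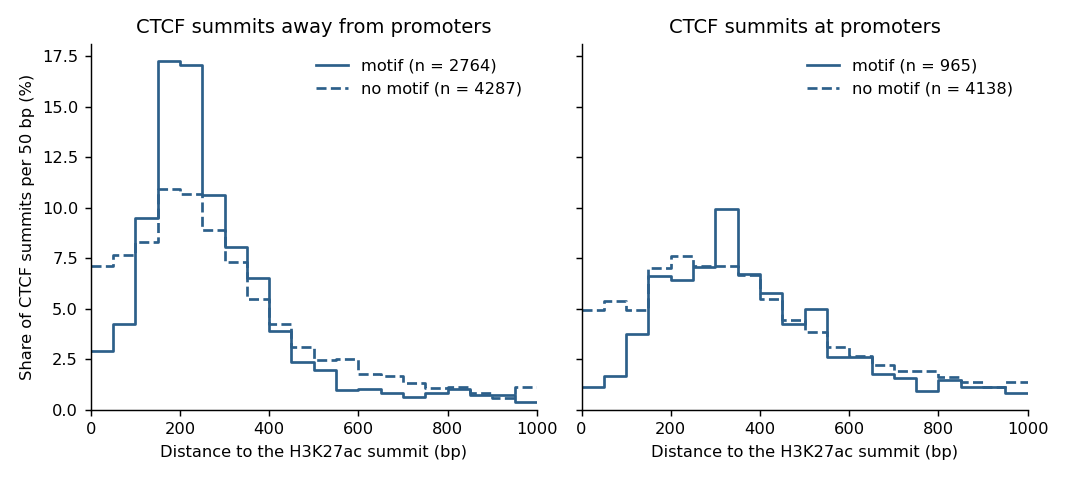
Distance in VPA-treated cells from each CTCF summit inside an acetylated region to that region's H3K27ac summit (horizontal axis, bp), from its peak of highest rank. The vertical axis is the share of summits per 50 bp (%), away from promoters (left) and at promoters (right). Solid lines are CTCF summits with the motif and dashed lines those without, and away from promoters the solid line is low in the first 100 bp (7.16% of summits) and highest between 150 and 250 bp.

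The CTCF motif was scarcer at acetylated promoters than elsewhere. It was present at 794 of 4420 CTCF regions there (17.96%, Wilson 16.9% to 19.1%), at 28.9% of those at promoters without acetylation and at 39.1% and 39.7% of acetylated and other regions away from promoters. The single CTCF libraries gave 16.9%, 16.9% and 18.9% at acetylated promoters and 50.2%, 35.5% and 38.0% at sites neither acetylated nor at a promoter, so acetylated promoters were the lower in each. Fold enrichment over the local background, as the peak caller gave it, was also lower at acetylated promoters, with medians of 7.82, 9.68 and 11.4 against 12.8, 28.5 and 33.6 at acetylated sites away from promoters and 9.44, 13.7 and 15.3 at sites neither acetylated nor at a promoter. By within-list rank replicate 1 went the other way, with a median of 69.9 at acetylated promoters against 66.5 and 43.2 at the other sites. Replicates 2 and 3 had 44.8 and 47.2 at acetylated promoters, against 47.8 and 47.4 at sites neither acetylated nor at a promoter. For consensus regions the median rank was 53.8 at acetylated promoters, above the 46.4 of those sites and below the 64.9 of acetylated sites away from promoters. GC content was highest at the acetylated promoters (median 66.9%). The parts of GC content and of antibody signal without a motif were not tested.

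Motifs at acetylated promoters had a side and a direction, and those at other promoters leaned the same way. Upstream of the TSS 521 of 2190 CTCF regions had a motif (23.8%), and downstream 273 of 2230 (12.2%). Of the upstream motifs, 66.0% (Wilson 61.9% to 70.0%) read in the direction of the gene, against 49.5% (43.6% to 55.3%) downstream. The 3 libraries gave 67.7%, 66.2% and 66.9% upstream and 50.2%, 50.7% and 50.7% downstream. Upstream CTCF summits were also closer to the start, with 56.0% within 200 bp against 32.9% downstream. At promoters without acetylation, motifs were also more frequent upstream (34.4%) than downstream (22.2%), and 43.6% against 32.8% of CTCF summits lay within 200 bp. There 58.1% of 124 upstream motifs followed the gene, with an interval of 49.3% to 66.4% that included equal shares. The 3 libraries gave 58.3%, 56.7% and 59.6%, and the interval of replicate 3 (51.8% to 67.0%) did not include equal shares.

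A gene was given a mark when a consensus region reached within 1 kb of its TSS, and the enrichments below are those of each library's own peaks in that window. Of 19111 protein-coding genes on chromosomes 1 to 22, 5547 had both marks, which is 29% of genes, and 6849 had acetylation only, 35.8%. CTCF only was found at 799 promoters, 4.18%, and 5916 had neither. Each gene had 1 TSS, the outermost start of its annotation, so a gene with neither may carry a mark at another start. With the TSS of any protein-coding transcript, 6711 genes had both, 6422 acetylation only and 883 CTCF only. The replicates counted alone gave 4897, 6057 and 5295 genes with both, 6792, 6490 and 7161 with acetylation only and 940, 763 and 749 with CTCF only. CTCF was present at 44.7% of acetylated promoters (Wilson 43.9% to 45.6%) and at 11.9% of the others (11.1% to 12.7%). In the replicates this share was 41.9%, 48.3% and 42.5% of acetylated promoters and 12.7%, 11.6% and 11.3% of the others, so the gap of 32.8 points was far larger than the spread. The gap was 22.3 points when all 6 lists were cut to equal length.

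The CpG content of promoters differed between the classes, as the median observed over expected CpG ratio was 0.839 with both, 0.812 with acetylation only, 0.472 with CTCF only and 0.261 with neither. CTCF was also counted within ranges of this ratio. Below a ratio of 0.25 it was at 29.9% of acetylated and 6.52% of other promoters, and from 0.75 up at 47.0% and 26.7%. The ranges are broad, and the part of CpG content in the gap was not tested. Opposed starts within 1 kb, as at divergent gene pairs, were found at 17.4% of genes with both, 21.7% with acetylation only and 1.38% with CTCF only. Over the gene body and promoter together, 10943 genes held both marks and 2880 held neither, with median gene lengths of 44.2 and 6.80 kb.

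The gene families were read against these shares, and their counts are descriptions without a test. Housekeeping families were acetylated at most starts, as were 12396 of all 19111 genes. Cytosolic ribosomal protein genes, which encode the ribosome, had 31 of 81 promoters with both, 45 with acetylation only, 2 with CTCF only and 3 with neither. RPL10A had H3K27ac fold enrichments of 17.1, 62.1 and 57.2 and CTCF enrichments of 77.0, 127.3 and 71.9 in the 3 replicates. RPL7A had H3K27ac at 20.7, 67.9 and 52.8 and a CTCF peak in 1 library alone, at 2.56, and was in the class with both in CTRL. RPL22 was among the 2 with CTCF only, at 4.68, 5.64 and 7.39. Proteasome subunit genes were split 13 both, 19 acetylation only and 5 neither of 37, glycolysis genes 6, 8 and 2 of 16, and replication-dependent histone genes, which supply new chromatin, 21, 34 and 13 of 68. In glycolysis, PGAM1 and ALDOA had both, while PKM and GAPDH had no CTCF region at the start.

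The machinery of looping and acetylation was itself mostly acetylated. Of 19 genes of CTCF, cohesin and their partners, 8 had both and 10 acetylation only. ESCO1, which acetylates cohesin, had CTCF enrichments of 85.0, 121.1 and 95.4, and STAG1, a cohesin subunit, had 72.8, 95.8 and 97.6. The CTCF gene itself was in the class with both, whereas SMC3 and RAD21, which form the cohesin ring, had acetylation only. Among the zinc-dependent deacetylases, the enzymes that VPA inhibits in part, 4 of 9 had both (HDAC4, HDAC5, HDAC9 and HDAC10), HDAC1, HDAC3 and HDAC11 had acetylation only, and HDAC2 and HDAC7 had neither within 1 kb of the annotated start. Acetyltransferases and bromodomain readers had 7 of 15 with both, CREBBP and EP300 among them, and 7 with acetylation only, KAT7 among them. Nuclear lamina and LINC genes, which encode proteins of the nuclear lamina and envelope, had 4 with both and 9 with acetylation only of 15. LMNB1 was in the first group with a CTCF peak in 2 libraries at 2.35 and 4.90, and had acetylation only in CTRL.

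Families of development, growth control and neurons ranged in acetylated starts from 12 of 13 AP-1 and immediate early genes to 10 of 19 neuronal genes. HOX genes, at 33 of 39, were acetylated about as often as proteasome subunit genes, at 32 of 37. HOX genes, which pattern the body axis, had 16 with both, 17 with acetylation only and 6 with neither of 39. HOXA5 had H3K27ac at 17.8, 72.2 and 40.9 and CTCF at 119.2, 80.3 and 56.0. HOXA3 had the same H3K27ac values and no CTCF at its start, but was in the class with both in CTRL. Of 15 kidney development factors, 6 had both and 4 acetylation only, with WT1 in the first class and FOXC1 and SIX2 in the second. SIX2 had both in CTRL. AP-1 and immediate early genes had the class with both at 8 of 13, among them JUN and EGR1, and CDK inhibitors at 5 of 7, among them CDKN2A and CDKN2B, while CDKN1A had acetylation only. Genes that work mainly in neurons had 6 with both, 4 with acetylation only, 2 with CTCF only and 7 with neither of 19. GRIN2A, a glutamate receptor subunit, had CTCF only at 87.9, 91.5 and 115.3.

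Families that work in other tissues stood at the other end. Of 414 olfactory receptor genes 407 had neither mark, 6 had CTCF only and 1 had acetylation only, and of 55 keratin genes 51 had neither. Zinc finger genes of chromosome 19, of which many encode repressors of repeats, were not of this kind. Of 246, 48 had both and 133 acetylation only (19.5% and 54.1%), 8 had CTCF only and 57 had neither (23.2%).

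**Figure D4:**
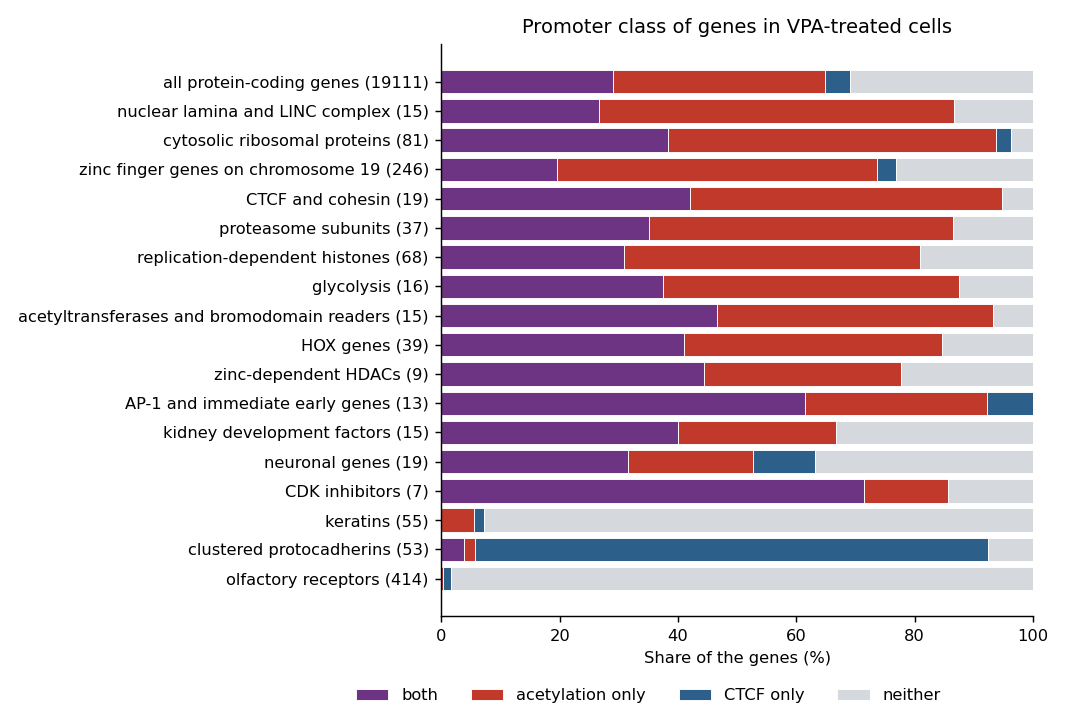
Share of genes (horizontal axis, %) by the marks within 1 kb of their start in VPA-treated cells, for all protein-coding genes and 17 families, with the number of genes in brackets. The clustered protocadherins are in the CTCF only class for 46 of 53 genes against 4.18% of all genes, and olfactory receptors and keratins are nearly all without either mark.

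The clustered protocadherins had a pattern of their own. These cell adhesion genes of chromosome 5 lie in 3 tandem clusters whose alternative promoters are chosen by CTCF and cohesin looping, and give neurons individual surface identities. CTCF only was found at 46 of 53 promoters (86.8%), in 14 of 15 alpha, 15 of 16 beta and 17 of 22 gamma genes. The remaining 7 were PCDHGA11 and PCDHGC3 with both, PCDHGC4 with acetylation only and 4 genes with neither. PCDHGC4 had neither in CTRL and the other 52 were in the same class there. Acetylation was weak where it occurred, at 2.30, 5.02 and 7.28 for PCDHGA11.

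Within the clusters the CTCF signal varied widely between genes and libraries. PCDHAC1 had enrichments of 56.1, 75.1 and 53.9 and PCDHGB7 of 57.3, 115.6 and 66.5, at a mean within-list rank of 85.9 and 84.6 on a scale to 100. PCDHA1 had 2.40, 5.68 and 7.63. Of the 46 genes, 27 had the CTCF region in all 3 libraries, and of the 15 beta genes only 2 had it, since replicate 1 had no peak at the other 13. A core motif with at most 1 mismatch near the summit was found at 4 of the 46, all in the direction of the gene, 3 of them in the alpha cluster at 596 to 633 bp downstream of the start. The fourth was PCDHB9, at 42 bp upstream. Over all promoters without acetylation such a motif was more frequent, at 191 of 662 CTCF regions (28.9%), counted over regions and not genes. The sequence at PCDHA13 matched all 13 letters and is shown because it was the single full match in the family.

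PCDHA13, 607 bp downstream of the start, chr5:140882717-140882745, plus strand: ctcgatttCCACTAGATGGCGcatccgat

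The regions highest in rank illustrate each class. In the class with both, the H3K27ac region chr7:102569922-102573748 and the CTCF region chr7:102572161-102574376 covered the start of POLR2J3, a paralog of an RNA polymerase II subunit. H3K27ac enrichment there was 6.70, 19.9 and 20.4 and CTCF enrichment 42.0, 77.5 and 71.4. POLR2J3 has near-identical copies on chromosome 7, so its values are uncertain. At chr19:4398105-4404513 an acetylated region of 6409 bp joined the divergent starts of CHAF1A, a histone chaperone of replication, and SH3GL1, an endocytic adaptor. Its H3K27ac enrichment was 27.3, 45.2 and 61.3, and CTCF stood between both starts at 163.9, 163.5 and 157.8. U2AF2, a splicing factor, had H3K27ac at 16.6, 40.5 and 55.1 and CTCF at 95.1, 120.2 and 147.2. The intergenic region chr13:91346586-91352071 had H3K27ac at 14.8, 60.5 and 44.3 and CTCF at 92.3, 70.8 and 84.3.

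Among 14404 acetylated regions present in all H3K27ac libraries and in no CTCF list, the highest lay over CSNK1E, a casein kinase gene, at chr22:38313519-38320152, with 25.6, 54.9 and 70.4. It was followed by SERBP1, an mRNA-binding protein, with 18.5, 50.8 and 50.7, and by NPM1, a nucleolar chaperone, with 20.2, 48.7 and 53.9. RCC1, which charges the GTPase Ran on chromatin, had 33.6, 62.7 and 61.8 in a region of 13108 bp, and RNF138, a ubiquitin ligase, had 13.9, 48.4 and 66.0. By promoter class, RNF151 and DDX17 also ranked among the 5 highest. For CTCF only regions, the site in GBX1 had 182.3, 218.9 and 175.3 and the site 26.0 kb from EIF1 had 228.4, 174.9 and 174.7, against 29.1 to 61.3 at the 3 repeated sites of chromosome 21. Among promoters with CTCF only, CEACAM5 and CEACAM7, neighbouring adhesion genes of gut epithelium, shared 1 CTCF region with 129.7, 154.8 and 109.9. Each of the regions named here was also called in CTRL, and replicate 1 had lower H3K27ac enrichment than the other libraries in every acetylated one.

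The markers placed the libraries as follows. Among genes known from HEK cells, VIM had both marks at the start, KRT8, KRT18 and EPCAM had acetylation only, and PAX2 and LIN28B had neither there but 1 and 5 acetylated regions within the gene. VIM, an intermediate filament, had H3K27ac at 13.2, 54.3 and 38.4. Of 11 markers of other tissues, 3 had an acetylated region at the promoter. These were MYOD1, a muscle regulator, with 2 libraries at 6.51 and 5.54, and DES and APOA2, where a consensus region reached within 1 kb of the start but 1 library alone had its own peak there, at 3.05 and 13.3. In CTRL none of these was acetylated at the promoter, where MYOD1 had CTCF only and DES and APOA2 had neither mark. ALB, INS, CD3E, PTPRC, GFAP and UMOD were among those that had no consensus region of either antibody at the start. The part of other cells in the acetylation of MYOD1, DES and APOA2 was not tested.

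Another 4 genes came from the study's own follow-up. CLDN1, a tight junction protein, had CTCF at 94.4, 116.3 and 91.6 in all libraries and H3K27ac at 4.67 and 4.58 in replicates 2 and 3 only, and was in the CTCF only class in CTRL. P3H2, a collagen hydroxylase, had an acetylated consensus region reaching into the promoter window, where 1 library had its own peak, at 8.06, and had neither mark in CTRL, while the gene as a whole held 2 acetylated and 4 CTCF regions, and both acetylated ones met CTCF. SYNE1, a LINC complex protein, had acetylation at 3.39 and 2.36 in 2 libraries, no CTCF at the start, and 9 CTCF regions in its body. SP110, a nuclear body protein, had neither mark at the promoter or in the gene.

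Both marks followed gene density over the chromosomes, acetylation more steeply. Acetylated regions ranged from 7.35 per Mb on chromosome 18 to 37.0 on chromosome 19, a 5.04-fold range, and CTCF regions from 11.98 on chromosome 4 to 37.2 on chromosome 19, a 3.11-fold range. Across the 22 chromosomes, which share the same libraries, protein-coding genes per Mb had a Pearson r of 0.968 (Spearman rho 0.945) with acetylated and 0.926 (0.957) with CTCF regions per Mb, and without chromosome 19 these r were 0.941 and 0.938, given as a description only. The number of CTCF regions per acetylated region was 1.00 on chromosome 19 and 1.73 on chromosome 8. The share of CTCF regions with acetylation was lowest on chromosome 18 (15.99%) and highest on chromosome 19 (42.2%), and away from promoters it was 9.78% and 34.8% on the same chromosomes. The median distance of acetylated regions to CTCF was 2.59 kb on chromosome 19 and 10.4 kb on chromosome 4.

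The share of a list that fell on a chromosome did not overlap between the antibodies at 15 of 22 chromosomes. It was higher for H3K27ac in all libraries on 6 (chromosomes 1, 6, 12, 16, 17 and 19), 27.3% of chromosomes, and higher for CTCF on 9 (chromosomes 2, 5, 8, 9, 10, 11, 18, 20 and 21), 40.9%. Chromosome 17 held 6.45%, 6.02% and 6.20% of H3K27ac peaks and 5.38%, 5.10% and 4.74% of CTCF peaks. Of the 5 chromosomes richest in genes (11, 16, 17, 19 and 22), chromosome 22 overlapped between the antibodies and chromosome 11 was higher for CTCF, with 4.67%, 4.64% and 4.61% of H3K27ac peaks against 5.42%, 5.32% and 5.24% of CTCF peaks. Those 5 chromosomes together held 23.4% ± 0.368 of H3K27ac and 21.2% ± 1.09 of CTCF peaks (exact p = 0.1).

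**Figure D5:**
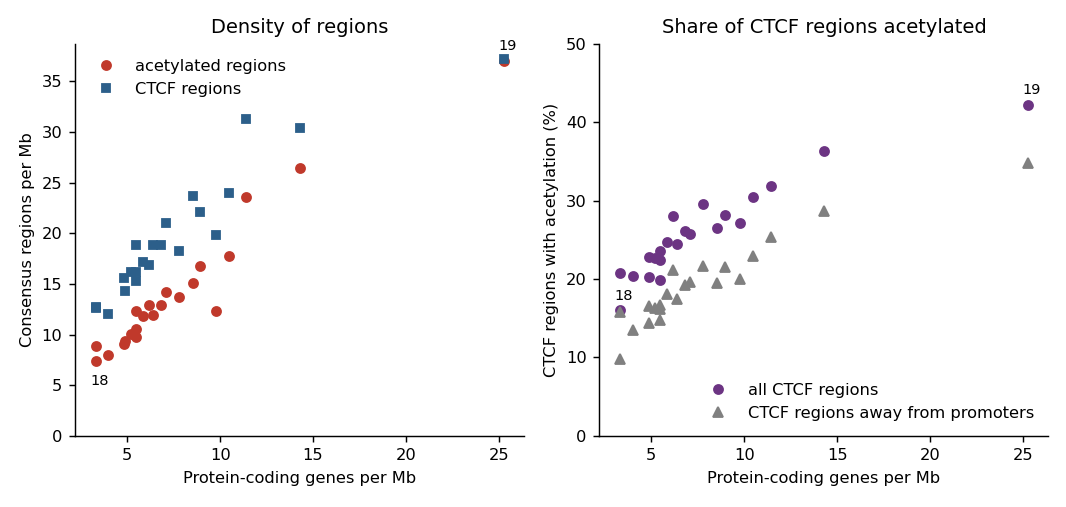
Consensus regions per Mb (left) and the share of CTCF regions with acetylation in % (right) against protein-coding genes per Mb (horizontal axes), with 1 point of each series for each of the 22 chromosomes in VPA-treated cells and triangles for CTCF regions away from promoters. Chromosome 19 has the most regions of both kinds (37.0 and 37.2 per Mb) and chromosome 18 the lowest share of acetylated CTCF regions (15.99%).

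Set beside untreated cells, acetylated peaks lay slightly farther from CTCF after VPA. Within 10 kb of a CTCF summit were 59.5%, 60.5% and 61.4% of the H3K27ac peaks in VPA and 62.3%, 63.3% and 62.7% in CTRL, without overlap (difference −2.33 points, exact two-sided permutation p = 0.1, adjusted p = 0.153). The median distance was 5683.5 ± 412 bp and 4870 ± 284 bp (exact p = 0.1, n = 3 each). The direction was not stable, since with lists of equal length the differences were 2.69 points and −1969 bp, and without the CTRL CTCF library of replicate 2 they were 9.58 points and −3807 bp, without that of replicate 3 9.06 points and −3536 bp. The share of CTCF summits at acetylated promoters overlapped between VPA and CTRL (9.43% ± 2.18 and 8.40% ± 0.632, exact p = 0.7).

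The class of a promoter was mostly the same in the 2 conditions. Of the genes with both in VPA, 5077 had both in CTRL, 334 had acetylation only and 127 had CTCF only, CLDN1 and MYOD1 among the last. Of those with acetylation only, 6183 were so in CTRL, 403 had both and 260 had neither, and of those with CTCF only 690 had it in CTRL. Promoter peaks were a larger share of the H3K27ac lists in CTRL (34.9%, 32.7% and 32.5%), so the distance of 13.4 points to CTCF in VPA stood against 23.3 points in CTRL (difference of the differences −9.87 points, exact permutation p = 0.035 over 400 assignments, adjusted p = 0.153). With lists of equal length this was −0.54 points (exact p = 0.685), and without the VPA CTCF library of replicate 1 it was −8.58 points (exact p = 0.065).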

How the data were processed

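The authors used Bowtie2 to place paired-end reads on hg38 and MACS to call peaks, library by library, at a q-value of 0.05. Use of the inputs and treatment of duplicates are not given in the sources used here. The deposited lists hold each peak's interval, summit and fold enrichment (a ratio), its −log10 p-value and −log10 q-value, and a score that equals 10 times the −log10 q-value without decimals in 99.0% to 99.9% of peaks, all as the authors' caller gave them. Depth is not recorded and limits the precision to an unknown extent.

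Lists were read with Python 3.11.15 and numpy 2.4.6. Peaks sharing 1 bp were merged. Summits were placed on GENCODE release 44, which has 19111 protein-coding autosomal genes, and the 13-letter CTCF core motif was searched in the hg38 sequence on both strands. Functions were tested on simulated data. Groups came from the labels. Libraries were compared by exact permutation tests, with Benjamini-Hochberg adjustment over 23 tests. Same-numbered libraries correlated over 1 Mb bins at 0.683, 0.448 and 0.381 between VPA and CTRL for H3K27ac, which met the limit of 0.1 set for pairs, although replicates 2 and 3 correlated across numbers as well (0.447 and 0.312).

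Named regions were the 5 highest by mean within-list rank per class. Named genes were the 5 highest per promoter class, up to 2 per class of 17 gene families, the markers and 4 genes of the study. In a few families further members were named for what they encode, after their values were seen. Some genes under these rules are not reported here. The members and lists were chosen with earlier results of these data known. The alternatives were a stricter q-value, lists of equal length, each library left out, other definitions of consensus, promoter and motif, and a replicate block. Confidence intervals are 95% Wilson intervals.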

Additional observations from a re-analysis of the deposited data

Results flagged for a closer look

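2 differences between the antibodies were not the same in VPA as in CTRL by a permutation of the treatment labels within each antibody. The promoter share of H3K27ac peaks exceeded that of CTCF peaks by 13.4 points in VPA and by 23.3 points in CTRL, a difference of −9.87 points (exact p = 0.035, adjusted p = 0.153, with −12.7, −9.15 and −7.76 points in libraries of the same number). The gene body share differed by 1.38 points in VPA and by −4.17 points in CTRL, a difference of 5.55 points (exact p = 0.005, adjusted p = 0.115, with 6.55, 4.96 and 5.15 points). All 3 replicates had the same sign in both cases, but any other matching of these libraries would give that sign too. The shared sign is therefore no further support. Neither difference passed the adjustment over 23 tests. H3K27ac lists were longer in VPA (38441 to 40992 peaks) than in CTRL (26299 to 29799). With all 12 lists cut to 26299 peaks, an alternative chosen after seeing the data, the values were −0.54 points (exact p = 0.685) and −1.19 points (exact p = 0.435).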

How the results depend on the processing

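Among the recomputed values, 318 kept their direction and their side of 0.05, stayed within the spread of the replicates or, for counts of genes, within 1.5 times the count, 22 moved further, 16 turned direction, 5 newly passed 0.05 and 2 no longer did. Some of the 318 could not change. These were the 13 values of the replicate block, which keeps the mean difference, and the differences in peak number, which equal list lengths set to 0. Each value was counted once, so a value that turned direction could also lose its call. The comparison of both antibodies between VPA and CTRL in gene body share did so with equal list lengths (exact permutation p 0.005 and then 0.435). For the difference between the antibodies in gene body share, 1.38 points, the stricter q-value gave −0.17 and equal list lengths −0.27. With consensus regions in 3 of 3 libraries, and with equal list lengths, the median distance to CTCF was 9254 and 9146 bp, the share within 10 kb 51.3% and 51.6%, the share of acetylated regions with CTCF 31.5% and 28.6%, and the promoter gap 25.5 and 22.3 points. With the CTCF summit required inside, that share was 32.1%. Counts of genes moved by more than the spread of the replicates, as equal list lengths gave 3906 with both, 8404 with acetylation only and 642 with CTCF only. Equal list lengths turned the VPA against CTRL differences to −1969 bp and 2.69 points. The alternatives for the comparison of both antibodies between VPA and CTRL were chosen after seeing the data, and equal lengths gave −1.19 points for gene bodies, 396 bp for width, −0.54 for promoters (exact p = 0.685) and −1.28 for summits over 100 kb from a TSS.

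Leaving out 1 library at a time gave 4727 to 5530 genes with both, 6475 to 7669 with acetylation only and 605 to 1133 with CTCF only, 4589 to 9322 bp for the distance, 51.2% to 62.9% within 10 kb, 29.6% to 36.3% of acetylated regions with CTCF, 21.1% to 34.6% of CTCF regions with acetylation and, for VPA against CTRL, −3807 to 5403 bp, −13.2 to 9.58 points and −0.17 to 1.97 points at acetylated promoters. For the comparison of both antibodies it gave −10.9 to −8.58 for promoters (exact p 0.015 to 0.065), 3.19 to 5.21 for intergenic peaks, −6.35 to −3.76 for GC, 8857 to 20785 for peak number, −0.30 to 1.16 for gene-dense chromosomes and −0.87 to 2.30 beyond 100 kb. The promoter value lost its call without the VPA CTCF library of replicate 1 (exact p = 0.065). Without the CTRL CTCF library of replicate 1, intergenic peaks, GC and peak number passed 0.05 before adjustment (exact p 0.045, 0.02 and 0.02), and the first 2 also without the VPA CTCF library of replicate 3 (0.03 each). Where a CTCF library is left out, a region needs both remaining libraries, which shortens the CTCF set.

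H3K27ac and CTCF libraries of the same number did not deviate together over 1 Mb bins (correlations −0.19, −0.10 and −0.14), although replicate 1 stood apart in both antibodies. Whether they came from the same culture was not tested. The replicate block was run for the 13 differences between antibodies in VPA and between VPA and CTRL. By construction it keeps the mean difference, for example 13.4 points at promoters, and gave exact p of 0.25 to 0.5 by sign flips, of which 0.25 is the smallest that 3 pairs allow. It was not run for the comparison of both antibodies between VPA and CTRL, whose permutations are unpaired, since CTCF libraries of the same number correlated at 0.538, 0.00598 and 0.590 and so not in every pair. The cause of these shifts was not tested. The number of reads behind a peak is unknown, so a weak region absent from a list cannot be told from one not detected.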
